A study of Mus musculus with 27 samples.

Results

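The comparison set both amacrine cell types of the series, as 1 side, against cone photoreceptors of the adult mouse retina. It used 9 of the 27 arrays: 3 of Arc amacrine cells, 3 of starburst amacrine cells and 3 of cones. The amacrine side was the mean of the Arc mean and the starburst mean, so that each type had equal weight. The genes described are those that differed from cones in the same direction in Arc cells and in starburst cells. There were 655 such genes among the 12441 tested (5.26%). The series was made to relate expression values to the amount of RNA from a cell group, and its other 18 arrays hold 6 mixtures of starburst and cone cells, with 3 arrays each.

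Arc amacrine cells were GFP-positive cells of the line Tg(Arc-EGFP)194Gsat/Mmcd, and the study's design calls this group an internal batch control. Starburst amacrine cells were RFP-positive cells from a cross of the Cre line 129S6-Chat_tm1(cre)Lowl/J with a Rosa26-LSL-RFP reporter. Cones were GFP-positive cells of the line Tg(Chrnb4-EGFP)1Gsat. All mice were adult, and the labels give every group the same mixed background, C57BL/6J with an FVB/N-Swiss Webster hybrid. The hybrid stock carried a recessive mutation that causes photoreceptor degeneration and was backcrossed to C57BL/6J before its F2 mice were used; per the growth protocol, lines from elsewhere were on C57BL/6J already. For the starburst and cone arrays, 6 retinas of the starburst line and 2 of the cone line were pooled, and the sort was done 3 times with different mice. The design does not describe the pools of the Arc arrays. Each array took 200 sorted cells. Cell type and transgenic line cannot be told apart. The fluorescent protein was the same in Arc cells and cones and another in starburst cells.

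Amacrine cells are the inhibitory interneurons of the inner retina. They synthesise GABA or glycine, receive glutamate from bipolar cells through ionotropic receptors, and release transmitter from conventional synapses along their processes. Cones are the photoreceptors of daylight vision: opsins in the outer segment activate transducin and a phosphodiesterase, cyclic-nucleotide-gated channels close, and glutamate release from a ribbon synapse falls.

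Values were log2 RMA values, so a difference of 1 is a 2-fold difference. The threshold for a call was a limma p under 0.05 after Benjamini-Hochberg adjustment over all tested genes, together with an absolute log2 difference of at least 1. Errors of differences are limma's standard errors, with 3 arrays in each group. The labels call the arrays biological replicates.

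Within a group, pairs of arrays correlated at 0.976 to 0.979 for Arc cells, 0.966 to 0.972 for starburst cells and 0.935 to 0.961 for cones (Pearson's r over all genes, which are not independent replicates). The third cone array stood apart. Its mean over the rod phototransduction list was 7.56, against 6.49 and 6.32 on the other cone arrays, its bipolar list mean was 4.29 against 3.59 and 3.48, and its vascular list mean was 3.22 against 2.40 and 2.35. Its cone phototransduction mean was 6.61, against 7.48 and 7.41. Some lists of general functions were lower on it as well. Its oxidative phosphorylation mean was 8.22, against 8.70 and 8.66, and its cytosolic ribosomal mean 9.41, against 9.65 and 9.59. The standard deviation over its probe sets was 1.545, against 1.66 and 1.64 on the other cone arrays. The cause of these departures was not tested. In such bulk samples, fewer cells of a type and less RNA per cell cannot be told apart. The second starburst array had a bipolar list mean of 3.88, against 3.16 and 3.19 on the other starburst arrays. Among the 222 genes higher in cones, the third cone array was the cone array nearest to the amacrine side for 157 genes (70.7%). Without it, 363 genes were higher in both amacrine types and 304 were higher in cones. Without it and the second starburst array, the counts were 344 and 274.

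**Figure D1:**
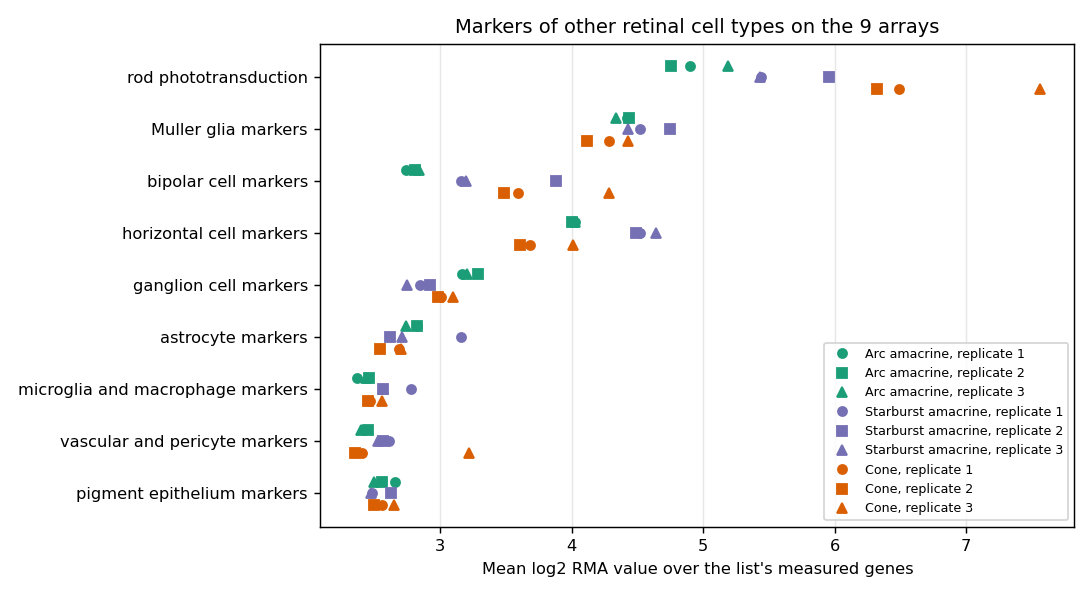
Mean log2 RMA value over the measured genes of 9 marker lists of other retinal cells, 1 point per array; colours give the cell type (Arc, starburst, cone, from top to bottom within a list) and shapes the replicate. The third cone array lies highest in the rod list at 7.56 and in the vascular list at 3.22, and all Arc arrays lie at or below 2.84 in the bipolar list.

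Both amacrine types were higher than cones for 433 genes, 3.48% of those tested, and lower for 222 genes, 1.78%. In the comparison of the amacrine side as a whole, 840 genes (6.75%) were higher and 349 (2.81%) were lower, 9.56% in either direction. By type, 974 genes (7.83%) were higher and 312 (2.51%) lower in Arc cells than in cones, 10.3% in either direction. In starburst cells 720 (5.79%) were higher and 328 (2.64%) lower, 8.42% in either direction. The 2 single-type comparisons share the 3 cone arrays, so their joint count is the one that defines the genes and was not tested. The median difference over all tested genes was 0.07. Among the 433 genes higher in amacrine cells the median difference was 1.61 and the largest 4.70; 24 exceeded a difference of 3. Among the 222 genes higher in cones the median was -1.84 and the most extreme -7.04; 42 went past a difference of 3. The amacrine mean lay under 2.83, the median of all values, for 50 of the 222 genes, and the cone mean did so for 39 of the 433. A difference from values that dim is that of the listed values, whose detection was not tested. On the side of cones the genes were fewer and the extremes larger.

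Scaling between arrays, limma's treat and the third cone array each moved the balance of the 2 directions. As deposited, 66.1% of the 655 genes were higher in amacrine cells. Under another setting the share is of the genes which that setting called in both types. The share was 49.7% after a further quantile normalization and 52.6% after centring each array on its mean. It was 53.2% with limma's treat and 54.4% without the third cone array. No gene of the 655 was called in the opposite direction under any of these 4 settings.

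Of the 433 genes, 10 are predicted genes without a name, and of the 222, 14 are. The 6 amacrine arrays lay entirely on one side of the 3 cone arrays for 417 of the 433 and for 217 of the 222 genes. Over all tested genes this held for 1450 genes (11.7%) higher in amacrine cells and 772 (6.21%) higher in cones. The 433 and the 222 genes were chosen for their differences on these same arrays. Their separation therefore follows in large part from that choice and is no independent support. At the edge of the fold threshold, the smaller of the 2 differences was 1.002 for H4c9 and Qsox1, just inside, and 0.998 for Icmt and 0.995 for F8a, just outside. A further 426 genes passed the adjusted p in both types with 1 sign and missed only the fold.

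**Figure D2:**
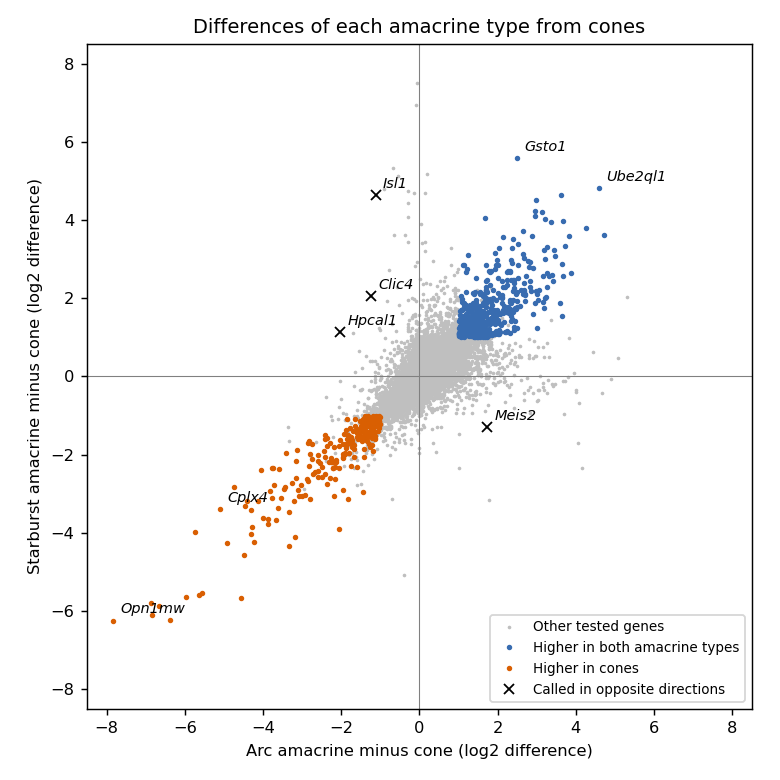
Log2 difference from cones in Arc amacrine cells (horizontal) and starburst amacrine cells (vertical) for 12441 tested genes; blue points are the 433 genes higher in both types, orange points the 222 higher in cones, and crosses the 4 genes called in opposite directions. Both axes subtract the same 3 cone arrays, so points lean to the diagonal through that shared term; Gsto1 lies far above the diagonal, with 5.57 in starburst cells.

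The genes highest in both amacrine types over cones were led by Ube2ql1, a ubiquitin-conjugating enzyme of the E2 family. Ube2ql1 read 9.20, 9.28 and 9.19 on the Arc arrays and 9.41, 9.41 and 9.55 on the starburst arrays, against 4.94, 3.52 and 5.46 on the cone arrays. All 6 amacrine arrays were within a narrow band that the cone arrays did not reach, and the difference was 4.70 ± 0.27 (adjusted p = 7.5e-11). Homer2, a postsynaptic scaffold that binds group I metabotropic glutamate receptors, read 7.72, 8.02 and 7.39 in Arc cells and 8.48, 8.72 and 8.99 in starburst cells, against 3.51, 4.22 and 4.55 in cones. Its difference was 4.13 ± 0.29 (adjusted p = 1.5e-09). The probe sets of Homer2 and Sh3pxd2a were chosen from several as those with the highest mean.

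The same group held genes of metabolism and detoxification. Mgll, the lipase that degrades an endocannabinoid, differed by 3.66 ± 0.51; its cone arrays read 3.52, 2.33 and 6.01, so that the third cone array stood 2.49 above the next. Hpgd, which inactivates prostaglandins, differed by 3.82 ± 0.29. Nudt11, a diphosphoinositol polyphosphate phosphohydrolase, differed by 4.18 ± 0.54, and the third cone array was the low one, at 3.20 against 6.04 and 6.15. Mt2, a metal-binding metallothionein, differed by 3.76 ± 0.34, and Gsto1, a glutathione transferase of the omega class, by 4.03 ± 0.19. These were higher in both types, and Mt2 and Gsto1 differed between the types as well, as given further on.

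Structural and secreted products completed the leading 12. Tagln3, an actin-associated neuronal protein of the calponin family, differed by 4.03 ± 0.36. Sh3pxd2a, a scaffold of podosomes, read 8.08 to 8.49 over the 6 amacrine arrays and 4.45 to 4.81 over the 3 cone arrays, a difference of 3.70 ± 0.27. Sgcb, beta-sarcoglycan of the dystrophin-associated complex, differed by 3.62 ± 0.39. Sparcl1, a secreted matricellular protein, differed by 3.60 ± 0.16. Npy, the precursor of neuropeptide Y, read 8.25, 8.42 and 7.98 in Arc cells and 9.25, 9.48 and 9.36 in starburst cells, against 5.17, 5.21 and 5.39 in cones, a difference of 3.53 ± 0.21 (adjusted p = 9.2e-11). All 12 genes had adjusted p-values of 1.6e-05 or less.

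**Figure D3:**
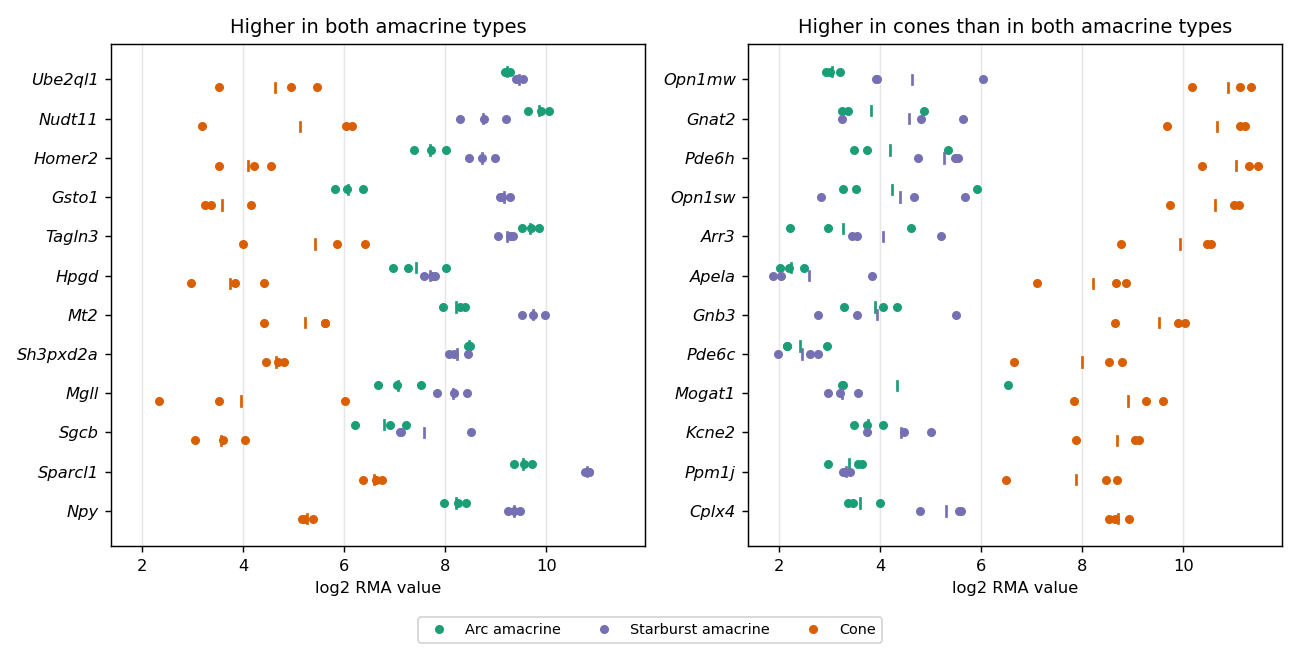
Log2 RMA values on the 9 arrays for the 12 named genes with the largest difference in each direction; within a gene, Arc arrays are drawn above starburst arrays and cone arrays lowest, points are arrays and ticks are group means of 3 arrays. On the left, Ube2ql1 lies between 9.19 and 9.55 on all 6 amacrine arrays; on the right, the third cone array (the lowest cone point for Opn1mw, at 10.18) lies left of the other cone arrays.

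Of the marks used for the amacrine class, Gad1, Tfap2b, Pax6 and Ube2ql1 were higher in both types. Several other amacrine genes, given further on, were not. These marks were chosen with earlier results of these data known, so they are no test of the class. Ube2ql1 is itself the gene with the largest difference toward the amacrine side. Gad1, which makes GABA from glutamate, read 8.52, 8.48 and 8.22 in Arc cells and 8.25, 8.14 and 8.26 in starburst cells, against 4.98, 4.45 and 6.17 in cones. Its difference was 3.11 ± 0.24 (adjusted p = 7.6e-09), and the third cone array was the nearest to the amacrine side. Tfap2b, a transcription factor of developing and mature amacrine cells, read 7.47, 6.96 and 7.44 in Arc cells and 6.79, 6.57 and 6.17 in starburst cells, against 3.29, 3.81 and 3.81 in cones, a difference of 3.27 ± 0.21. Pax6, a homeodomain factor kept by amacrine, ganglion and horizontal cells, differed by 2.57 ± 0.24. For Gad1, Tfap2b and Pax6 the 2 amacrine types were not called apart.

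The genes behind the reporters were less uniform. Arc, the gene whose regulatory DNA drives the GFP of Arc cells, read 4.57, 4.58 and 4.46 in Arc cells and 3.21, 2.79 and 3.21 in starburst cells, against 3.18, 3.34 and 3.25 in cones. Chat, the acetylcholine-synthesising enzyme, read 3.04, 2.71 and 2.79 in Arc cells and 3.85, 3.81 and 4.58 in starburst cells, against 3.21, 2.87 and 3.05 in cones. Each was therefore called in its own amacrine type only, and neither is among the 655 genes. Chrnb4, a nicotinic receptor subunit whose DNA drives the cone reporter, read 2.42, 2.44 and 2.52 in Arc cells and 2.76, 2.31 and 3.06 in starburst cells, against 4.71, 4.22 and 3.26 in cones. Its difference was -1.48 ± 0.38 (adjusted p = 8.3e-03), and the third cone array was the lowest cone value. Without the first cone array Chrnb4 fell short of the call, at -1.15 (adjusted p = 0.073), and leaving out any of 8 of the 9 arrays cost it the call in at least 1 type.

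The GABA pathway was shared in part. Of 8 listed genes for GABA synthesis, loading and uptake, 7 were measured and 5 passed the filter on dim genes; 2 were higher in both types and 0 in cones. Besides Gad1 this was Slc32a1, the vesicular transporter of GABA and glycine, with 1.36 ± 0.15 (adjusted p = 9.0e-07). Gad2, the other GABA-synthesising enzyme, read 6.18, 5.71 and 5.61 in Arc cells and 2.19, 2.33 and 2.39 in starburst cells, against 2.72, 2.21 and 3.05 in cones. It was called in Arc cells and between the 2 amacrine types, with an Arc minus starburst difference of 3.53 (adjusted p = 6.9e-10). Of 7 genes for glycine synthesis and transport, all measured, 3 passed the filter and 0 were called in both types.

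Of 26 listed transcription factors of amacrine cells, 23 were measured and 20 tested, and 2 were higher in both types: Tfap2b and Pax6. Another 6 differed between the types, among them Sox2, with 2.96, 2.46 and 2.44 in Arc cells and 7.11, 7.17 and 7.25 in starburst cells, against 2.44, 2.31 and 2.68 in cones. The 6 genes called between Arc and starburst cells outnumber the 2 shared ones in this list. Of all tested genes, 3.55% were called between the types and 3.48% were higher in both.

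At the synapse, genes of conventional vesicle release were higher in both types for 6 of 30 tested (35 listed, 31 measured), and 0 were higher in cones. Unc13a, which primes vesicles, read 7.64, 8.05 and 7.55 in Arc cells and 7.15, 7.24 and 7.30 in starburst cells, against 5.57, 5.50 and 5.61 in cones, a difference of 1.93 ± 0.25. Syt11, a synaptotagmin, differed by 2.65 ± 0.31, the vesicle proteins Syngr3 by 2.42 ± 0.28 and Synpr by 1.85 ± 0.25, and Snap25, a SNARE protein of the plasma membrane, by 1.40. Syt1, the calcium sensor of fast release, was bright in every group and differed by 0.60 ± 0.16, under the fold threshold. The background for this and the other lists is 3.48% of all tested genes higher in both types and 1.78% higher in cones.

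On the receiving side, 4 of 18 tested genes of glutamate receptors and the postsynaptic scaffold were higher in both types (34 listed, 31 measured) and 0 in cones. Gria4, an AMPA receptor subunit, read 4.79, 4.86 and 5.06 in Arc cells and 4.61, 5.23 and 4.51 in starburst cells, against 3.09, 3.04 and 3.30 in cones, a difference of 1.70 ± 0.22. Grm8, a presynaptic metabotropic receptor, differed by 1.97 ± 0.24, and the scaffold gene Dlg2 by 1.38 ± 0.31. Dlg2 lost its call in 1 type without the third Arc array, the first starburst array or the second cone array (highest adjusted p = 0.083), and Grm8 did so without the third cone array, where it missed the fold only. Of 13 tested receptors and scaffold genes for GABA and glycine (25 listed, 21 measured), 2 were higher in both: Glrb, the beta subunit of the glycine receptor, with 1.32 ± 0.20, and Gabrb1, a GABA-A receptor subunit, with 1.93 ± 0.25. Gabrb1 fell short of the fold in 1 type without the first Arc array.

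Ion transport and excitability showed both directions. Slc8a1, the sodium-calcium exchanger, read 7.53, 7.52 and 7.61 in Arc cells and 7.07, 7.41 and 7.61 in starburst cells, against 3.45, 3.31 and 5.61 in cones, a difference of 3.33 ± 0.37, with the third cone array high among cones. The beta subunits of the sodium pump Atp1b1 and Atp1b3 differed by 2.63 ± 0.22 and 1.85 ± 0.27. These 3 were the shared genes among 11 tested for chloride and sodium transport and pumps (19 listed, 14 measured). Among 32 tested potassium and HCN channel genes (49 listed, 45 measured), 4 were higher in both types and 1 in cones. Kcnip1, which modulates A-type potassium channels, read 6.79, 6.55 and 6.99 in Arc cells and 5.69, 5.93 and 5.40 in starburst cells, against 2.78, 2.62 and 3.95 in cones, a difference of 3.11 ± 0.34. Kcnk1, a potassium channel of the K2P family, and Kcnc2, a channel of fast spiking, differed by 2.26 ± 0.22 and 1.63 ± 0.20. Kcne2, a channel beta subunit, went the other way, with -4.60 ± 0.54. Fgf12, which binds sodium channels, was the 1 shared gene of 4 tested in the sodium channel list, with 1.87 ± 0.16 (12 listed, 10 measured). Of 7 tested calcium channel genes (17 listed, 15 measured), 2 were higher in cones, Cacna1f and Cacna2d4, and 0 in both amacrine types.

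Signalling genes followed. Of 28 tested G protein subunit and RGS genes (33 listed, 31 measured), 6 were higher in both amacrine types and 1, Rgs20, in cones (-1.48). Without the second cone array Rgs20 lost its call in 1 type (adjusted p = 0.0609). Gng3, a neuronal gamma subunit, differed by 2.95 ± 0.29, Gna11, an alpha subunit of the Gq class, by 2.43 ± 0.35, Rgs2, a regulator of Gq, by 2.06 ± 0.20 and Gnao1, the alpha subunit of Go, by 1.62 ± 0.27. The list of calcium-dependent kinases and phosphatases also holds calcium sensors and calmodulin-binding proteins. Of its 18 tested genes (24 listed, 22 measured), 3 were higher in both. These were the calmodulin-binding Pcp4 with 2.89 ± 0.38, the calcium sensor Vsnl1 with 2.55 ± 0.25 and Camkv with 1.32 ± 0.17. Pcp4 read 10.28 to 10.96 on the amacrine arrays, against 9.73 on the third cone array and 6.90 and 6.66 on the other cone arrays. Camkv missed the fold in 1 type without the first Arc array. Of 21 tested neuropeptide and dense-core vesicle genes (25 listed, 24 measured), 2 were higher in both, Npy and the granin Scg2 with 1.75 ± 0.23. In the same list 7 genes, Npy among them, differed between the amacrine types, against 3.55% of all tested genes.

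General neuronal genes were also in part higher in the amacrine types, beside the 3.48% of all tested genes higher in both. Ina, the neurofilament protein alpha-internexin, read 7.20, 6.42 and 7.05 in Arc cells and 8.12, 7.89 and 7.86 in starburst cells, against 4.11, 4.16 and 4.45 in cones, a difference of 3.18 ± 0.24. It was 1 of 5 shared genes among 26 tested for the neurite cytoskeleton (32 listed, 31 measured), with Mapt, the microtubule-associated protein tau, at 1.34 ± 0.15. Of 19 tested neuronal RNA-binding proteins (20 listed, all measured), 3 were higher in both: Celf4 with 1.94 ± 0.22, Celf2 with 1.52 ± 0.21 and Elavl3 with 1.81 ± 0.32, of which Elavl3 lost the call in 1 type without the first starburst array (adjusted p = 0.051). Of 26 tested cell recognition genes (37 listed, 35 measured), 3 were higher in both, among them the synaptic leucine-rich repeat proteins Lrrtm1 with 1.94 ± 0.25 and Lrrc4c with 1.71 ± 0.23. Of 17 tested cadherins and protocadherins (26 listed, 25 measured), 1 was higher in cones: Pcdh15, of the photoreceptor calyceal processes and of hair cells, with -2.28 ± 0.23.

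**Figure D4:**
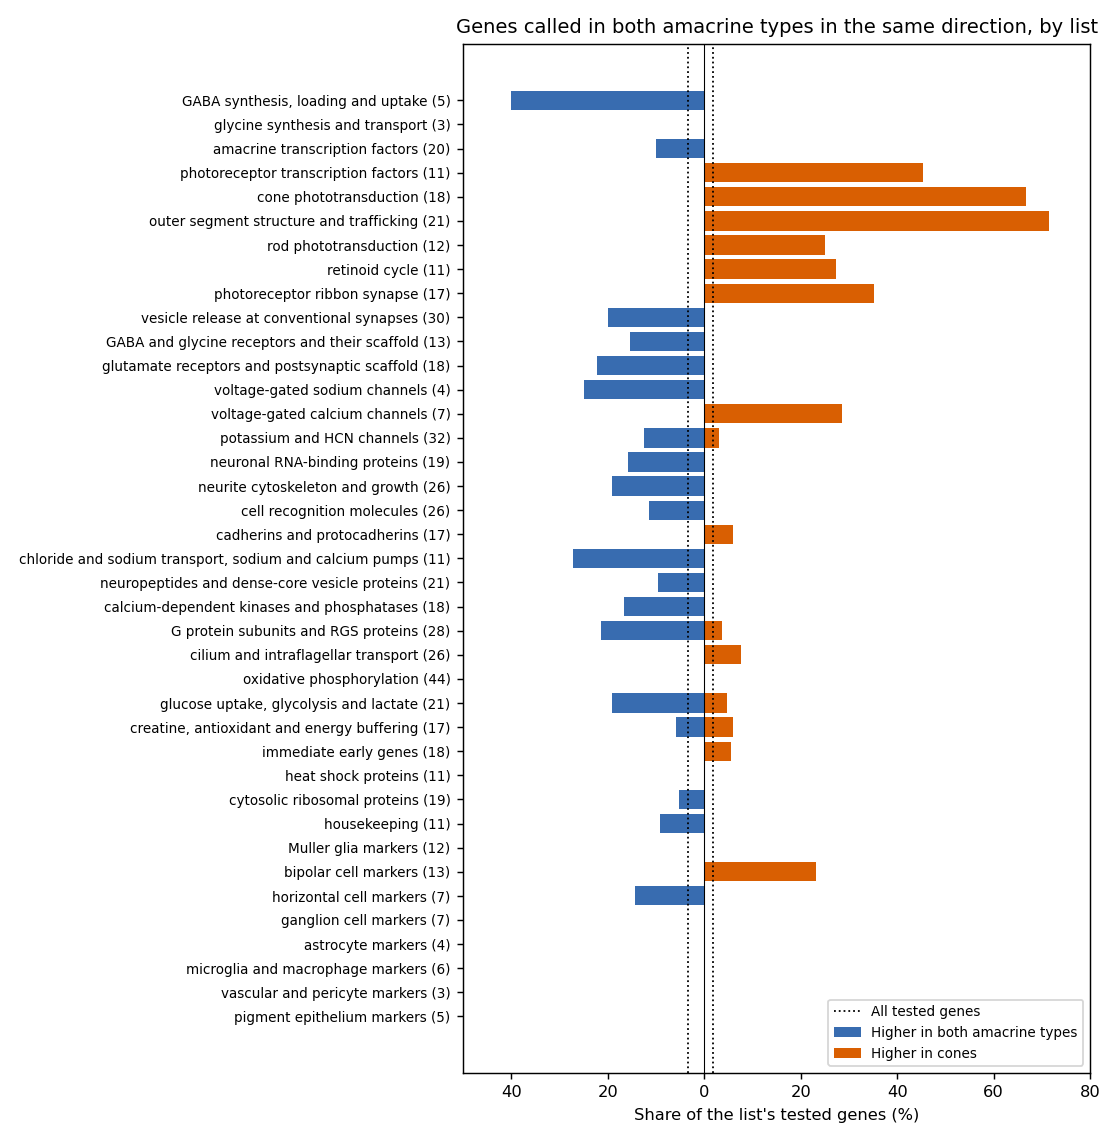
Share of each list's tested genes (in brackets, their number) that were called in both amacrine types in the same direction, higher in amacrine cells to the left and higher in cones to the right; dotted lines give the shares over all tested genes, 3.48% and 1.78%. The bars to the right are longest for outer segment and cone phototransduction genes, which are known cone genes, and lists of few genes give coarse shares.

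Cones were higher for most of the listed phototransduction genes. Of 20 listed genes, 19 were measured and 18 tested, and 12 were higher in cones than in both amacrine types, against 1.78% of all tested genes. The medium-wave opsin Opn1mw read 3.21, 2.92 and 3.00 in Arc cells and 3.93, 6.04 and 3.94 in starburst cells, against 11.13, 11.34 and 10.18 in cones. Its difference, -7.04 ± 0.51 (adjusted p = 2.4e-09), was the most extreme of the 12441 genes. The second starburst array stood above the other starburst arrays for Opn1mw. The short-wave opsin Opn1sw differed by -6.30 ± 0.82, cone transducin alpha Gnat2 by -6.48 ± 0.72, its beta subunit Gnb3 by -5.61 ± 0.69 and its gamma subunit Gngt2 by -4.23 ± 0.54. The phosphodiesterase subunits Pde6c and Pde6h differed by -5.56 ± 0.78 and -6.32 ± 0.51, and cone arrestin Arr3 by -6.27 ± 0.69. Pde6c read 2.94, 2.17 and 2.16 in Arc cells and 2.76, 2.61 and 1.98 in starburst cells, against 8.79, 8.54 and 6.65 in cones; the amacrine values lie near the middle of all values, 2.83. The remaining shared genes were Rcvrn, Guca1a, Cngb3 and Grk1, from -3.87 for the calcium sensor Rcvrn to -1.69 for the opsin kinase Grk1. Cngb3, a subunit of the cone cyclic-nucleotide-gated channel, lost its call in at least 1 type in 6 of the 9 fits that left out 1 array (highest adjusted p = 0.104).

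Genes of the outer segment and of protein traffic to it were higher in cones for 15 of 21 tested (22 listed, 21 measured), and 0 were higher in the amacrine types. Aipl1, a chaperone of the phosphodiesterase, differed by -3.79 ± 0.46. Rpgrip1, which anchors RPGR at the connecting cilium, read 3.27, 2.75 and 3.01 in Arc cells and 3.30, 3.15 and 3.22 in starburst cells, against 6.05, 5.45 and 5.69 in cones, a difference of -2.62 ± 0.24. The disc-rim proteins Rom1 and Prph2 differed by -2.69 and -2.39. Rom1 was not at the floor in amacrine cells, with 7.27, 6.77 and 7.18 in Arc cells and 8.33, 9.13 and 8.09 in starburst cells, against 10.50, 10.32 and 10.64 in cones. Fam161a, a protein of the photoreceptor ciliary region, was alike in both amacrine types, with 3.87, 3.70 and 3.31 in Arc cells and 3.52, 3.64 and 3.76 in starburst cells, against 7.57, 7.42 and 6.93 in cones. General cilium and transport genes followed for 2 of 26 tested (33 listed, 30 measured), Cep290 with -1.40 ± 0.17 and Bbs12 with -2.49 ± 0.45; Bbs12 lost its call in 1 type without the second Arc array or the first cone array (highest adjusted p = 0.084).

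Of 17 listed transcription factors of photoreceptors, 15 were measured and 11 tested, and 5 were higher in cones: Rax, Otx2, Neurod1, Crx and Sall3, of which Sall3 missed the fold in 1 type without the first cone array. Otx2, which acts upstream of Crx, read 2.46, 2.71 and 2.79 in Arc cells and 3.88, 4.37 and 3.10 in starburst cells, against 5.65, 5.49 and 5.36 in cones, a difference of -2.28 ± 0.20. Crx, the homeodomain factor of photoreceptor genes, read 3.58, 3.25 and 3.63 in Arc cells and 3.75, 3.47 and 3.60 in starburst cells, against 5.47, 4.98 and 5.20 in cones, a difference of -1.67 ± 0.19 (adjusted p = 1.5e-06). Rax differed by -3.32 ± 0.45. Neurod1, a basic helix-loop-helix factor also used by amacrine cells, stayed bright in all groups, at 7.95 to 8.31 in Arc cells and 9.06 to 9.08 in starburst cells, against 10.40 to 10.75 in cones. The rod factor Nrl differed by -0.67 ± 0.14, under the fold threshold.

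CRX and OTX2 bind DNA at the core TAATCC, so the 250 bases before the start of each gene were searched for it on both strands, as a description (RefSeq promoter windows, build GRCm38.p6; genes may have several). The table held windows for 181 of the 222 genes higher in cones and for 341 of the 433 higher in amacrine cells. The letters TAATCC were in 3.3% of 454 windows of genes higher in amacrine cells and in 15.9% of 233 windows of genes higher in cones, compared with 5.61% of 12488 windows of all tested genes and 6.25% of 32851 windows of the whole table. The palindromic homeodomain core TAATTA was in 1.76% of the windows of genes higher in amacrine cells, 4.72% of those of genes higher in cones and 2.91% of those of all tested genes. The AP-2 motif GCCNNNGGC was in 20.5%, 13.7% and 18.8% in the same order, CAGCTG, an E-box, in 15.9%, 11.2% and 12.5%, and TATAAA in 7.05%, 11.2% and 7.94%. Base composition moved with these shares: the median number of CpG pairs per window was 13 for genes higher in amacrine cells, 9 for genes higher in cones and 14 for all tested genes, with median GC contents of 58.4%, 54.8% and 58.8%. The part of base composition in the motif shares was not tested.

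The windows below are picked examples of such stretches and are no measure of the shares above. First are those of the genes higher in cones with the largest difference among those that hold TAATCC (Gnat2, Ppm1j and Rbp3). Beside them are the windows of 2 genes higher in both amacrine types (Ube2ql1 and Gad1). Each runs 5′ to 3′ on the gene's strand and ends at the base before the start; capitals mark TAATCC or its reverse complement GGATTA.
Gnat2: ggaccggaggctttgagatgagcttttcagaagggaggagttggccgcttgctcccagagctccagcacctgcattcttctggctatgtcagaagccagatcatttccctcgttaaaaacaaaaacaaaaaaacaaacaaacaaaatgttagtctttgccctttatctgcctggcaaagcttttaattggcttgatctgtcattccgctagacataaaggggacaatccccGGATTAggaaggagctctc
Ppm1j: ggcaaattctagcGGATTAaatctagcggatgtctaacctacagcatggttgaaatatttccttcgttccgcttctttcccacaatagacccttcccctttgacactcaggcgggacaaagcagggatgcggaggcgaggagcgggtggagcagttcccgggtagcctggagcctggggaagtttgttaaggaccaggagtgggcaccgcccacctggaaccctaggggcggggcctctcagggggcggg
Rbp3: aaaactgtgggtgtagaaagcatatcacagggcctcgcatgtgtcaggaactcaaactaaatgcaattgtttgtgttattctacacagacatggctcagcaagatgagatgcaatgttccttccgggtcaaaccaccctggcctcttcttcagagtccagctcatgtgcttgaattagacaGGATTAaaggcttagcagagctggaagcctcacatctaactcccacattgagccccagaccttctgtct
Ube2ql1: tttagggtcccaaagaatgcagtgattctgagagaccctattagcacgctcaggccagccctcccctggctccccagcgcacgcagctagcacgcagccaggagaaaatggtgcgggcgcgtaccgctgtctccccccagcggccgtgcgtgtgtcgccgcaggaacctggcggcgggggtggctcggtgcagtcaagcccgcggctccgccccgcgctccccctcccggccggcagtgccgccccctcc
Gad1: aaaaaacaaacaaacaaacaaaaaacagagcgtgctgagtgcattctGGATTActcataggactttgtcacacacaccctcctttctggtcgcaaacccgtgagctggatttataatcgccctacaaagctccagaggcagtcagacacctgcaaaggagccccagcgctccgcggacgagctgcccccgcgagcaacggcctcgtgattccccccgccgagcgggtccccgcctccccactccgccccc
The Gnat2 window is chr3:108092816-108093065 on the plus strand, and its match begins 19 bases before the start. The Ppm1j window is chr3:104780806-104781055, plus strand, with a match that begins 237 bases before the start, and the Rbp3 window chr14:33953753-33954002, plus strand, with one at 69. The Ube2ql1 window, chr13:69739898-69740147 on the minus strand, has 0 matches. It has 24 CpG pairs and the Gad1 window 17, against 5 in Gnat2, 12 in Ppm1j and 2 in Rbp3. The Gad1 window, chr2:70561879-70562128 on the plus strand, does hold the letters, at 203 bases before the start. The windows of Opn1mw, Opn1sw, Arr3, Pde6h, Mogat1 and Kcne2, all among the genes furthest toward cones, hold none, which says only that these letters are not in that stretch.

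The retinoid and synapse genes of photoreceptors went the same way. Rbp3, the retinoid carrier between photoreceptors and pigment epithelium, read 4.71, 3.43 and 3.99 in Arc cells and 4.08, 5.18 and 4.19 in starburst cells, against 8.74, 8.66 and 7.62 in cones, a difference of -4.07 ± 0.40. It was 1 of 3 shared genes among 11 tested in the retinoid cycle (13 listed and measured), with the retinol dehydrogenase Rdh12 at -2.51 ± 0.26 and the retinoid transporter Abca4 at -1.34 ± 0.21. At the ribbon synapse, 6 of 17 tested genes were higher in cones (19 listed, 18 measured). Cplx4, a complexin of ribbon synapses, read 4.0, 3.37 and 3.47 in Arc cells and 5.56, 5.60 and 4.78 in starburst cells, against 8.92, 8.65 and 8.53 in cones, a difference of -4.24 ± 0.25. Cacna1f, the pore of the L-type calcium channel at photoreceptor terminals, differed by -2.22 ± 0.31. Its partner Cacna2d4 differed by -1.14 ± 0.23 and fell under the fold threshold without the second cone array, at -0.89; in 1 type it also lost its call without the first or second Arc array. Cplx3, the other complexin of ribbon synapses, read 9.90, 9.57 and 9.51 in Arc cells and 5.56, 7.32 and 6.09 in starburst cells, against 9.30, 8.62 and 8.06 in cones, and was lower than in cones in starburst cells only.

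Several of the most cone-weighted genes lie outside these lists. Apela, a secreted peptide hormone that binds the apelin receptor, read 2.21, 2.50 and 2.02 in Arc cells and 1.88, 3.85 and 2.03 in starburst cells, against 8.88, 8.68 and 7.10 in cones, a difference of -5.81 ± 0.64 (adjusted p = 8.6e-07) from amacrine values that lay under 2.83 on 5 of 6 arrays. Mogat1, which acylates monoacylglycerol, differed by -5.11 ± 0.89, and its second Arc array read 6.53 against 3.26 and 3.24 on the others. Ppm1j, a protein phosphatase, differed by -4.53 ± 0.67. Vtn, vitronectin, differed by -3.78 ± 0.36. Clca1, Ddhd1 and Impg1, the last a proteoglycan of the matrix between photoreceptors, were alike in both amacrine types, with Arc minus starburst differences within 0.01. Clca1 differed from cones by -3.07 ± 0.54, Ddhd1 by -2.13 ± 0.31 and Impg1 by -1.97 ± 0.34.

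Rod genes need the third cone array beside them. Of 14 listed, 12 were measured and tested; 3 were higher in cones in both comparisons: Sag with -3.25 ± 0.24, Pde6g with -2.99 ± 0.20 and Gngt1 with -2.24 ± 0.20. Their cone arrays differed little, with Sag at 11.06, 11.02 and 10.95. Rod transducin Gnat1 read 6.52, 6.82 and 7.18 in Arc cells and 7.42, 8.49 and 7.58 in starburst cells, against 8.11, 8.28 and 10.41 in cones. The amacrine-side difference of Gnat1 was -1.60 ± 0.46 (adjusted p = 0.016), and without the third cone array it was -0.86 (adjusted p = 0.21). The rod list mean was 4.75 to 5.19 on the Arc arrays and 5.43 to 5.96 on the starburst arrays, against 6.32 to 7.56 on the cone arrays. The part of rod RNA in the differences was not tested.

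Markers of other cells are given list by list. Of 13 tested bipolar markers (16 listed, 14 measured), 3 were higher in cones, against 1.78% of all tested genes: Cabp5, Scgn and Otx2, the last also listed among photoreceptor factors. Cabp5, a calcium-binding protein of bipolar cells, read 3.13, 2.95 and 3.05 in Arc cells and 2.72, 3.76 and 2.75 in starburst cells, against 6.10, 5.22 and 5.62 in cones, with -2.58 ± 0.33. Scgn differed by -2.44 ± 0.48 and lost its call in 1 type without the first starburst array, the third starburst array or the third cone array (highest adjusted p = 0.081). Gng13, of ON bipolar cells, differed by -2.17 ± 0.54 over the amacrine side, and without the third cone array it missed the call, with -1.39 (adjusted p = 0.087). The bipolar list mean was 2.74 to 2.84 on the Arc arrays and 3.16 to 3.88 on the starburst arrays, against 3.48 to 4.29 on the cone arrays. Of 7 tested horizontal cell markers (11 listed, 9 measured), 1 was higher in both amacrine types, Septin4 with 1.34 ± 0.21. Of the tested markers of Muller glia (12), ganglion cells (7), microglia (6), pigment epithelium (5), astrocytes (4) and vessels (3), 0 were called in both types; their list means lay between 2.35 and 4.75 on all 9 arrays. The part of RNA from these cells was not tested.

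Counts for housekeeping functions are given beside the 5.26% of all tested genes that were called in both types in either direction, and nothing is read from counts near that share. Of 44 tested genes of oxidative phosphorylation (46 listed, 44 measured), 0 were called by limma in either type or over the amacrine side, their median difference was 0.12 beside 0.07 for all genes, and Cox4i1 differed by 0.35 ± 0.14. Of 19 tested cytosolic ribosomal proteins (33 listed, 19 measured), 1 was higher in both, Rpl14 with 1.32 ± 0.20, and Rps14 differed by 0.01 ± 0.09. Of 11 tested heat shock proteins (13 listed, 11 measured) 0 were shared, and Hsp90aa1 differed by -0.30 ± 0.10. Of 11 tested housekeeping genes (15 listed, 11 measured), 1 was shared, the antigen-presentation gene B2m with 1.76 ± 0.45, whose amacrine-side value was 1.45 (adjusted p = 0.063) without the second cone array, and which lost its call in at least 1 type in 5 of the 9 fits that left out 1 array (highest adjusted p = 0.172).

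Glucose metabolism held isoform differences. Of 21 tested genes (27 listed, 23 measured), 4 were higher in both amacrine types and 1, the lactate and pyruvate transporter Slc16a1, in cones (-1.37). Slc16a1 lost its call in at least 1 type in 7 of the 9 fits that left out 1 array (highest adjusted p = 0.26). Ldhb, the heart-type lactate dehydrogenase subunit, read 8.12, 8.81 and 9.05 in Arc cells and 8.86, 9.12 and 9.0 in starburst cells, against 5.82, 7.02 and 7.47 in cones, a difference of 2.06 ± 0.29. Aldoc, the brain aldolase, differed by 1.78 ± 0.15, while Aldoa, the muscle-type aldolase, differed by 0.22 ± 0.12 and was bright in all groups. Mpc1, of the mitochondrial pyruvate carrier, differed by 1.85 ± 0.15, and Pfkm, muscle-type phosphofructokinase, by 1.66 ± 0.29. Ckmt1, mitochondrial creatine kinase, was higher in cones, with -2.43 ± 0.49, and lost its call in 1 type without the second Arc array, the third Arc array or the first or second cone array (highest adjusted p = 0.079). With Gsto1 it was called among 17 tested genes of creatine and antioxidant metabolism (22 listed, 19 measured). Of 18 tested immediate early genes (20 listed and measured), 1 was shared, the antiproliferative Btg2, higher in cones with -1.56 ± 0.24.

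Arc and starburst cells were compared directly to see how far the 655 genes depart from cones by the same amount, since the cone mean cancels in that difference. Over all tested genes, 269 (2.16%) were higher and 173 (1.39%) lower in Arc than in starburst cells, 3.55% in either direction. Among the 433 genes higher in amacrine cells, 9 were higher in Arc cells, 16 were higher in starburst cells and 408 were not called apart; the median absolute difference between the types was 0.34. Among the 222 genes higher in cones, 1 was higher and 9 were lower in Arc cells, and 212 were not called apart, with a median of 0.21. A gene that was not called apart is not shown to be equal in both.

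The widest gap within the shared genes was that of Gsto1, with 5.81, 6.06 and 6.38 in Arc cells and 9.28, 9.12 and 9.09 in starburst cells, against 4.15, 3.26 and 3.36 in cones. Its Arc minus starburst difference was -3.08 (adjusted p = 2.2e-09). Tgfb3, a transforming growth factor, read 4.81, 4.42 and 4.20 in Arc cells and 7.17, 6.64 and 6.80 in starburst cells, against 2.94, 2.82 and 2.67 in cones. In the other direction, Uchl1, a neuronal deubiquitinase, read 7.54, 7.72 and 7.52 in Arc cells and 6.20, 5.89 and 5.54 in starburst cells, against 4.03, 4.03 and 3.96 in cones. In these 3 genes the types form separate steps above cones. At the other end, Fez1, a kinesin adaptor of axonal transport, read 6.54, 6.41 and 6.30 in Arc cells and 6.50, 6.35 and 6.52 in starburst cells, against 3.43, 3.50 and 2.76 in cones. Abhd12, a lysophosphatidylserine lipase, was likewise alike, with 2.53 in Arc cells and 2.52 in starburst cells over cones.

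Many genes were called in a single type: 540 were higher than in cones in Arc cells only and 284 in starburst cells only, beside the 433 shared, and 87 and 105 were lower, beside the 222 shared. In opposite directions 4 genes were called. The count was 8 without the second cone array, 3 without the third cone array and 2 without the first starburst array. It was 7 after centring each array and 0 with limma's treat. Isl1, a LIM-homeodomain factor of starburst and bipolar cells, read 3.25, 2.79 and 3.63 in Arc cells and 9.02, 9.15 and 8.74 in starburst cells, against 3.54, 3.66 and 5.82 in cones. For Isl1 the third cone array was 2.16 above the next. Meis2, a homeodomain factor, read 4.40, 5.04 and 6.07 in Arc cells and 2.23, 2.28 and 1.90 in starburst cells, against 4.08, 3.58 and 2.66 in cones. Clic4, a chloride intracellular channel protein, and Hpcal1, a neuronal calcium sensor, were higher in starburst and lower in Arc cells than in cones. For these genes the equally weighted amacrine mean hides the types: it was 1.75 ± 0.34 for Isl1 and 0.21 ± 0.27 for Meis2.

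The mixtures gave a further measurement. Their values are not part of the group means that were compared. They did enter the filter on dim genes and the estimate of spread behind the p-values that chose the genes. The mixtures with 50, 100 and 150 cone cells came from the same pools and sorts as the pure starburst and cone arrays. These mixtures are therefore not independent of the pure arrays, and the slope fit had no term for the sort. The 18 arrays held 17 to 150 starburst cells and 50 to 183 cone cells of 200, and log2 values were regressed on the share of cone cells. They bear on starburst and cone cells only. Of the 433 genes higher in amacrine cells, 241 (55.7%) fell with the share of cones and 0 rose, against 5.84% of all tested genes that fell. After a further quantile normalization 159 amacrine-high genes fell. Of the 222 genes higher in cones, 86 (38.7%) rose and 0 fell, against 1.6% that rose over all. Genes called higher in starburst cells only fell nearly as often as the shared genes, in 155 of 284 cases (54.6%), and genes called higher in Arc cells only fell in 51 of 540 cases (9.44%). Without the third arrays of the 3 cone-rich mixtures, 156 of the 222 genes rose, and without the third arrays of all 6 mixtures 139 did.

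Single genes show the form of these changes. Ube2ql1 averaged 9.46 over the 3 pure starburst arrays. With 50, 75, 100, 150, 157 and 183 cone cells it averaged 9.46, 9.36, 9.11, 8.78, 8.64 and 8.02, and the pure cone arrays averaged 4.64. So 17 starburst cells of 200 kept it within 1.44 of the pure starburst level on the log2 scale. Gad1 averaged 8.22 in pure starburst cells, 6.74 at 183 cone cells and 5.20 in pure cones. Opn1mw averaged 4.64 in pure starburst cells, 9.80 at 50 cone cells, 9.06 at 75, 10.75 at 183 and 10.88 in pure cones. Its slope within the mixtures was not called. Apela and Fam161a rose over the mixtures, with slopes of 4.40 and 2.65 log2 units per unit share of cones. The rise was not even. With 75 cone cells Apela averaged 4.55 and Fam161a 4.83, under their 5.76 and 5.52 with 50 cone cells. Gnat2 likewise averaged 7.71 with 75 and 9.42 with 50. The labelled cone share is thus not in the order of these values at that step, and the cause was not tested. For Ube2ql1 and Opn1mw the largest step lay between a pure group and the mixture next to it, outside the range of the slope.

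**Figure D5:**
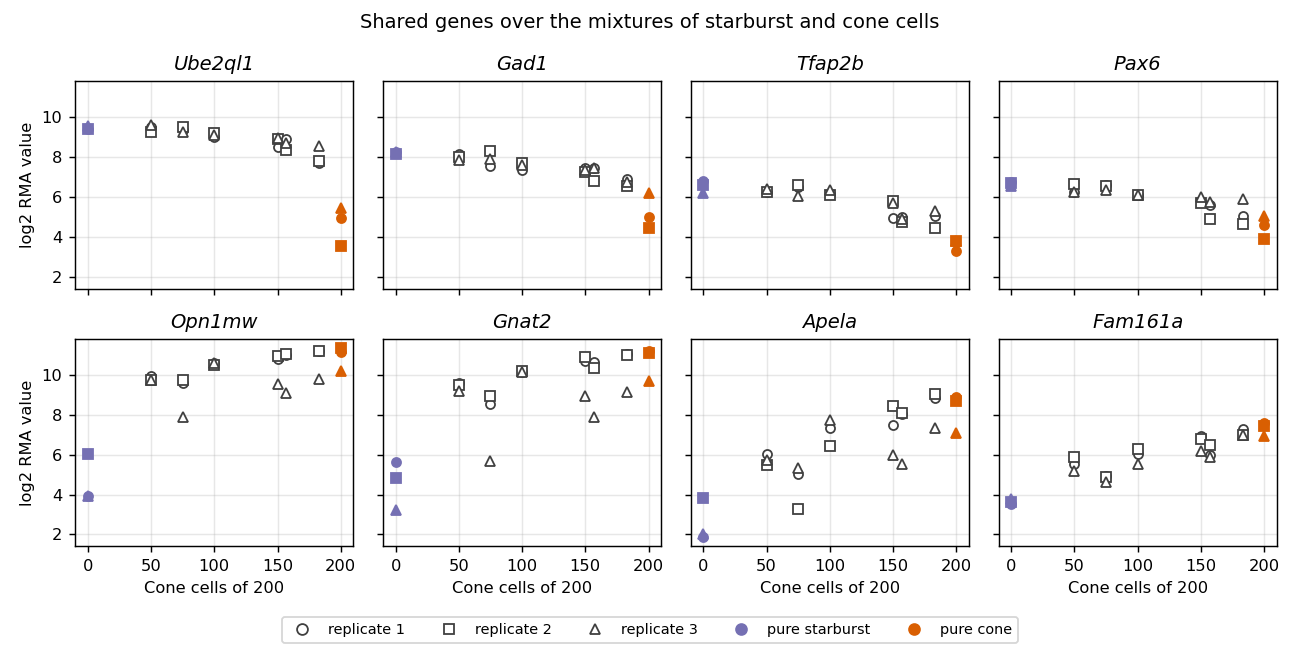
Log2 RMA values of 8 shared genes against the number of cone cells of 200, from pure starburst (0) over 6 mixtures to pure cones (200), 1 point per array; shapes give the replicate. The 4 genes in the upper row are higher in amacrine cells. Ube2ql1 still averaged 8.02 with 183 cone cells. Tfap2b and Pax6 fell earlier, from 6.51 and 6.67 in pure starburst cells to 4.88 and 5.40 with 157 cone cells. In the lower row several arrays of replicate 3, drawn as triangles, lie under the others, as for Opn1mw and Gnat2.

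Leaving out each of the 9 arrays in turn kept 235 of the 433 and 125 of the 222 genes through all 9 fits, and 0 of the 655 were called in the opposite direction in any of them. All 24 genes with the largest differences, Gad1, Tfap2b and Pax6 kept their call in both types in each of those fits. The fits reuse the arrays that chose these genes. They show only how far a call depends on a single array and are no independent support.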

How the data were processed

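The authors deposited log2 expression values per probe set. Per the submitters' processing notes these came from RMA in the R package oligo under R 2.11.1, with mm9 as the genome build. Which arrays were normalized together is not given in the sources used here. The lowest array median was 2.78 and the highest 2.89, and no arrays were duplicates of each other. Arrays have no depth; precision is set by their number.

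The platform annotation gave 1 symbol to 19446 of 22347 probe sets; those with several (735) or none (2166) were left out. Where a gene had more than 1 probe set (133 genes), the brightest on average was kept; the others never gave a call of opposite sign, and for 16 genes they disagreed on whether there was a call. The filter on dim genes kept 12441 of 19301 genes, those over 2.83, the median of the data, on 3 arrays or more, so a gene can pass through the groups where it is high.

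All 27 arrays entered 1 limma 3.58.1 fit in R 4.3.3 with a mean for each of 9 groups (18 residual and 3.42 prior degrees of freedom, two-sided tests). The amacrine side, each type against cones, and Arc against starburst were contrasts of this fit. The mixture slope was fitted on 18 arrays. The contrasts and the mixture slope were first tested on simulated data that held known differences.

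The design says that replicate numbers of titration arrays mark the 3 sorts, which pairs starburst and cone arrays. Deviations of same-numbered starburst and cone arrays from their group means correlated at 0.030, 0.014 and 0.056. For same-numbered Arc and cone arrays the values were 0.073, 0.018 and 0.095, and for Arc and starburst arrays 0.021, 0.010 and 0.051. Pairs of different numbers lay between -0.080 and 0.034. A part of replicate number in all 3 cell types was not tested. The model has no block; the block was an alternative.

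The comparison, the 39 gene lists (809 genes, 730 measured, 590 tested) and the rule for named genes were chosen with earlier results of these data known. Named were the 12 genes of largest difference in each direction without overlap of groups, 7 markers and reporter genes, up to 4 called and 2 bright members of a list, genes furthest apart or most alike between the types, and genes of opposite direction. List members beyond these, and genes at the edge of the threshold, were picked with their values in view. The promoter search was added after the genes were known.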

Additional observations from a re-analysis of the deposited data

Results flagged for a closer look

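The difference from cones was not the same size in both amacrine types for 20 of the named genes, by limma's test of Arc minus starburst. Among genes higher in both types than in cones, the difference was larger in starburst cells for Gsto1 (Arc minus starburst -3.08), Tgfb3 (-2.39), the orphan receptor Gpr12 (-1.88), the RGS7-binding protein Rgs7bp (-1.74), Mt2 (-1.53), Sparcl1 (-1.27) and Npy (-1.15). It was larger in Arc cells for the alpha-tubulin Tuba8 (2.09), the squalene epoxidase Sqle (1.78), Uchl1 (1.72) and Pmepa1 (1.25). Tuba8 lost its call in 1 type without any starburst array or without the first or second cone array (highest adjusted p = 0.119), Sqle without the third starburst or the third cone array (0.135), Pmepa1 without the second starburst, the third starburst or the first cone array (0.0889), and Gpr12 without the first Arc, the second Arc or the third cone array (0.112).

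Among genes higher in cones, starburst cells were nearer to cones for Vtn (-1.91) and Cplx4 (-1.70), and Arc cells were nearer for Tmem107 (1.51), a protein of the ciliary transition zone. Vtn read 5.05, 5.09 and 5.96 in Arc cells and 7.36, 8.0 and 6.46 in starburst cells, against 10.54, 10.21 and 9.54 in cones.

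The 4 genes of opposite direction were Isl1 (-5.75), Clic4 (-3.29), Hpcal1 (-3.16) and Meis2 (3.03). For Isl1 the call as lower in Arc cells than in cones rests on the third cone array. The reporter genes Arc (1.47) and Chat (-1.23) were called in their own amacrine type only.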

How the results depend on the processing

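Under every setting with all 9 arrays except limma's treat and a further quantile normalization, the counts for the amacrine side, each type and both types together stayed within 1.5 times those reported. Limma's treat at a log2 difference of 1 left 155 and 83 genes (higher in amacrine cells, higher in cones) for the amacrine side, 202 and 74 for Arc cells, 150 and 61 for starburst cells, 64 and 36 for Arc against starburst, and 59 and 52 in both types. A further quantile normalization left 283 and 286 genes in both types, 501 of the 655 among them, and 159 amacrine-high genes falling over the mixtures. Centring gave 332 and 299, and moved the median of all genes to -0.05 beside 0.07 as reported. The slope called 156 cone-high genes without the third arrays of the cone-rich mixtures and 139 without replicate 3 of all 6 mixtures, which was chosen after seeing the data. The causes were not tested.

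With the replicate block over all 27 arrays, 434 genes were higher in both amacrine types and 251 in cones, and 648 of the 655 were called again; with it over the titration arrays only, 431 and 227, and 645. Among named genes the block changed 1 call, that of Dhrs3 (-1.65, adjusted p = 0.038, not called otherwise). Leaving out 1 array at a time gave 363 to 482 genes in both amacrine types and 188 to 304 in cones, 723 to 937 and 294 to 415 for the amacrine side, 808 to 1050 and 254 to 398 for Arc cells, 601 to 757 and 256 to 414 for starburst cells, and 221 to 281 and 145 to 178 for Arc against starburst.

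The sign of 11 uncalled genes near 0 turned. Apoe was -0.055 after quantile normalization and Rps14 -0.11 after centring. Over the settings that left out 1 array, or the third cone and second starburst arrays together (chosen after seeing the data), the difference of the amacrine side from cones lay between -0.146 and 0.0143 for Cox6a1, -0.301 and 0.25 for Cx3cr1, -0.0764 and 0.324 for Fgf13, -0.237 and 0.011 for Hk1, -0.21 and 0.533 for Meis2, -0.00884 and 0.635 for Rdh5, -0.538 and 0.859 for Rgs5, -0.00478 and 0.0333 for Rps14, -0.372 and 0.224 for Scg5, and -0.88 and 0.102 for Sncg. With the 6 amacrine arrays as 1 group, 12 named genes, Sox2 (adjusted p = 0.26), Gnat1 (0.087) and Gng13 (0.061) among them, were no longer called. Values near 2.83, the median of the data, are dim, and no order was read among them.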
